A study of Mus musculus with 11 samples.

Results

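Expression of 35 mouse genes of endoplasmic reticulum (ER) protein folding and the unfolded protein response was examined in 3 populations of sorted pancreatic islet cells. The genes were taken by symbol from a list of the pathway, in a count table of 55401 genes, by a rule that sets no threshold on their values, and comprised 16 ER chaperones and folding enzymes, 7 genes of ER-associated degradation (ERAD), 6 stress sensors and transcription factors, 5 targets of the ATF4 branch and *Wfs1*, a gene of ER calcium handling. All 35 passed the filter on low counts, among 17424 genes that did. A further row that also carried the symbol *Ddit3* held 0 counts in every library and was left out.

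Islets came from 4 male C57BL6/J mice fed chow, recorded in the labels as 10 weeks old (the study's text gives another age), and every mouse carried Cre recombinase under the rat insulin promoter (RIP-Cre), a STOP-tdTomato reporter and an *Nnat*-EGFP transgene. Cells were sorted by fluorescence into beta cells labelled NNAT-positive (4 libraries), beta cells labelled NNAT-negative (4 libraries) and non-beta islet cells (3 libraries, none from mouse 4), and polyadenylated RNA was sequenced from each. tdTomato thus marks cells in which the rat insulin promoter has been active, and eGFP reports a transgene driven by *Nnat* regulatory sequence rather than the neuronatin protein itself. No mouse without these alleles was included. Total counts per library ranged from 30420352 to 43238376.

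The names of the beta cell fractions need a caution. *Nnat* mRNA, the gene whose eGFP reporter the sort used, was at 50.5, 46.4, 46.05 and 101.1 CPM (read counts scaled to a common library size) in the NNAT-positive-labelled libraries of mice 1 to 4, and at 74.8, 80.8, 66.5 and 153.3 CPM in the NNAT-negative-labelled libraries. It was lower in the NNAT-positive-labelled library in 4 of 4 mice (log2 difference -0.62, SE 0.17, adjusted p = 0.444 by edgeR's quasi-likelihood test), and a supplementary table of the study gives the beta cell fractions the opposite names. The names below are those of the sample labels, so a direction between the beta cell fractions holds for the libraries as labelled. Naming them the other way round turns the sign of that comparison and leaves the comparison of both fractions with non-beta cells as it is.

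Sorted identity was checked on markers. Summed over 11 beta cell markers, CPM was 187000 to 432700 in the beta cell libraries and 11190 to 27030 in the non-beta libraries. Summed over 8 alpha cell markers, the non-beta libraries held 124100 to 172500 CPM, the NNAT-positive-labelled libraries 3419 to 4648 and the NNAT-negative-labelled libraries 2188 to 3055. The non-beta libraries also held 22090 to 84480 CPM over 19 acinar markers, 2318 to 2655 over 9 endothelial, 1781 to 4424 over 12 leukocyte and 3916 to 8972 over 9 stromal markers. In the beta cell libraries acinar markers summed to 104.4 to 719.6 CPM in 7 libraries and to 3097 CPM in the NNAT-positive-labelled library of mouse 2. *Bhlha15*, one of these markers, was higher in beta cells, at 59.5 to 107.2 CPM against 12.9 to 23.4 CPM. It gave 85.9 of the 104.4 CPM in the NNAT-positive-labelled library of mouse 4. Endothelial markers summed to 5.82 to 14.2 CPM in the beta cell libraries, leukocyte markers to 60.15 to 102.9 CPM and stromal markers to at most 5.03 CPM. *Pdgfra* and *Lum* were at 0 in all 8, as was *Prss1*, which was at 0 in 9 of all 11 libraries and so not only in beta cells. The 6 delta cell markers summed to 6908 to 13510 CPM in non-beta cells, 1403 to 2490 CPM in the NNAT-positive-labelled and 545 to 1047 CPM in the NNAT-negative-labelled libraries, and the 2 PP cell markers to 1857 to 3690, 299.7 to 420.9 and 89.05 to 159.1 CPM. The 9 ductal markers differed less, at 521.4 to 662.9 CPM in beta and 670.9 to 997.2 CPM in non-beta cells. Non-beta therefore stands for a mixture of cell types here, and in bulk samples fewer cells of a type cannot be told apart from less RNA per cell.

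Secretory proteins fold in the ER with the help of chaperones, among which BiP (*Hspa5*) also holds the stress sensors in an inactive state. When unfolded protein accumulates, IRE1 (*Ern1*) splices *Xbp1* mRNA, ATF6 is cleaved to a transcription factor, and PERK slows translation while favouring ATF4, which in turn acts on *Ddit3* (CHOP), *Atf3* and *Trib3*. XBP1 and ATF6 raise chaperone and ERAD genes. Beta cells, which fold large amounts of proinsulin, are known for a high load on this system. Gene counts as used here do not separate spliced from unspliced *Xbp1* mRNA, and they carry no measure of ATF6 cleavage or of protein.

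The sequence through which ATF6 and XBP1 act on many chaperone genes, the ER stress response element (ERSE), is shown first as a sequence feature that is read apart from the counts. The genes were listed for their place in this response, so its presence in them is not independent of the choice. Promoter windows of 300 bases, from 250 before to 50 after the transcription start in RefSeq (GRCm38.p6), were at hand for 29 of the 35 genes. They were searched on both strands for the ERSE, CCAAT and CCACG with 9 bases of any kind between them. It was found in 9 of the 29 genes (31.0%), against 37 of all 27025 genes with a window (0.137%) and 1 of 86 other genes of the pathway, as listed further on (1.16%). Of these 9, 7 were among the 13 chaperones with a window and 2 among the 6 ERAD genes with one, and none was a stress factor or ATF4 target. The windows below are 30 bases, 5′ to 3′ on the coding strand of the gene, with the fixed letters of the element in capitals. *Hspa5* is given as the master chaperone, *Hsp90b1* because its window held the element in both orientations, *Calr* as an example on the opposite strand, and *Pdia6*, *Dnajc3* and *Syvn1* as folding, co-chaperone and ERAD genes that differed over 2-fold between the sorted populations.
Hspa5, chr2:34772020-34772049, plus strand: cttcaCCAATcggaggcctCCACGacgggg
Hsp90b1, distal, chr10:86705632-86705661, minus strand: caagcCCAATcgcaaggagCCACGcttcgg
Hsp90b1, proximal, chr10:86705527-86705556, minus strand: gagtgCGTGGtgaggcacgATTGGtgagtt
Calr, chr8:84847069-84847098, minus strand: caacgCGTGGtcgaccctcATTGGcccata
Pdia6, chr12:17266486-17266515, plus strand: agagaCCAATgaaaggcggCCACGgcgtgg
Dnajc3, chr14:118937822-118937851, plus strand: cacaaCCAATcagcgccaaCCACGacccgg
Syvn1, chr19:6046527-6046556, plus strand: cgcaaCCAATcggcggtagCCACGggaaca

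The *Hspa5* element began 65 bases before the RefSeq start, and its window lies inside the longer GENCODE span of the gene (chr2:34771970-34777547). The other windows lie upstream of the GENCODE gene. The remaining 3 genes with the element were *Canx*, *Creld2* and *Derl3*. A related element, ERSE-II (ATTGG and CCACG with 1 base of any kind between them), was found in *Herpud1* and *Dnajb11* and in 0.0444% of all genes. That of *Herpud1*, shown because this ERAD gene lacked the longer element, began 52 bases before its start.
Herpud1, chr8:94386368-94386397, plus strand: cgggcgctgATTGGgCCACGttggacactg

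The XBP1 element TGACGTGG and the element TGATGNAAT, bound by ATF4 with C/EBP factors, were found in none of the 29 windows and in 0.714% and 1.08% of all genes with one. Among the 86 other pathway genes with a window they were found in 5.81% and 6.98%. A match is a run of letters and was not tested as a binding site, and no match says only that these letters are not in the window.

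The first question was how the beta cell fractions compare with the non-beta fraction. The listed chaperones and ERAD genes were higher in the beta cell fractions, while *Atf3*, a transcription factor induced by many kinds of stress, was far lower. By edgeR's quasi-likelihood test with the mouse as a block, at an adjusted p below 0.01, 30 of the 35 genes were higher in the beta cell fractions, 2 were lower and 3 were not called. Of all 17424 genes tested, 17.2% were higher and 23.9% lower. The median log2 fold change was 0.94 over the 35 genes and -0.098 over all tested genes. Every beta cell library lay above every non-beta library for 26 of the 35 (16.5% of all genes tested) and below for 1 (26.2%). Over 2-fold as well, 15 were higher, against 6.22% of all genes, and 2 were lower, against 18.9%.

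**Figure D1:**
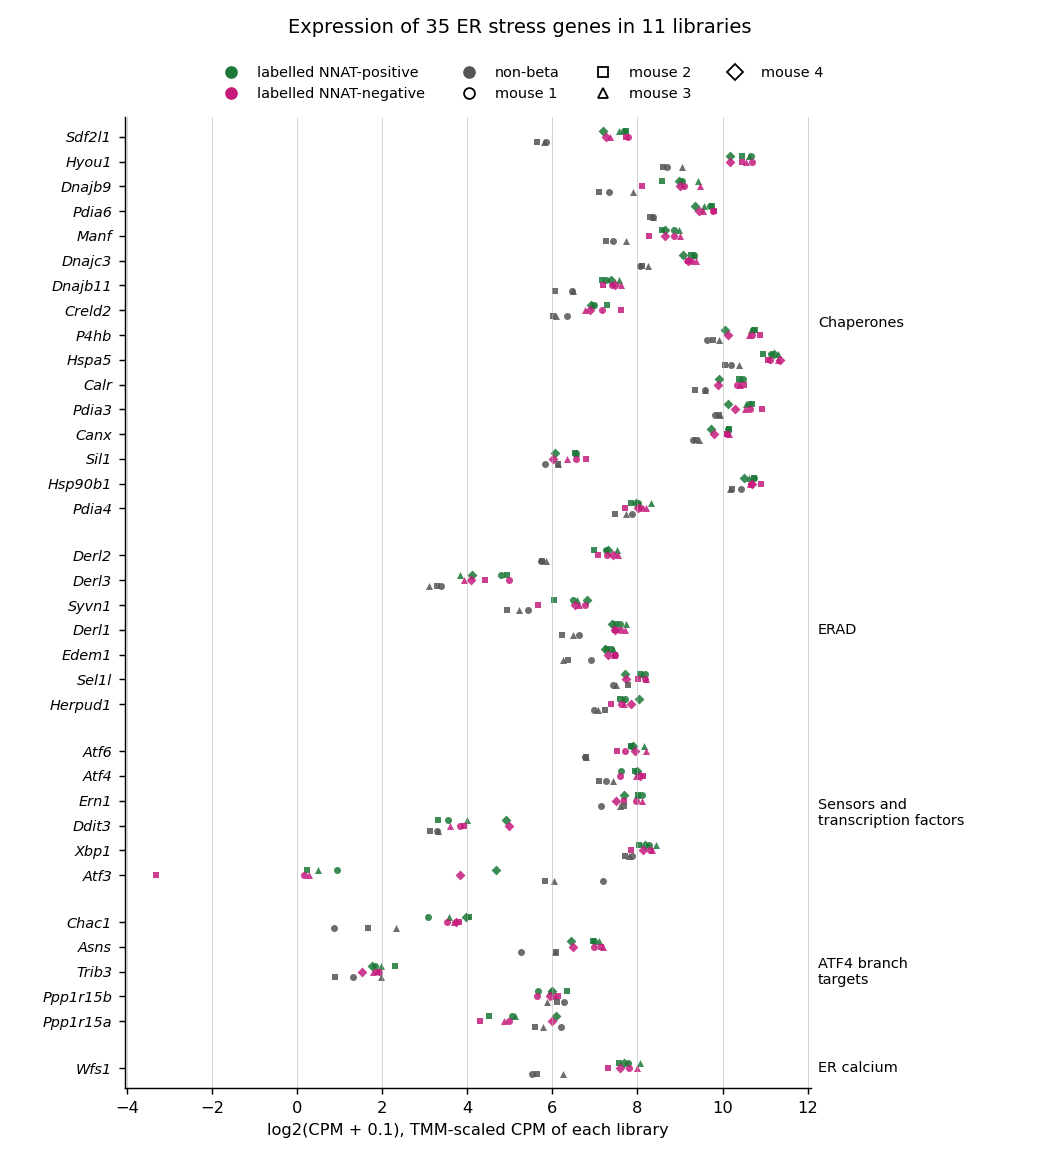
Expression of the 35 genes in each of the 11 libraries, as log2(CPM + 0.1) on the horizontal axis, grouped by role and ordered within a role by the fold change between beta and non-beta cells. Colour gives the sorted population and the symbol the mouse. For 26 genes every beta cell library lies to the right of every non-beta library, and *Atf3* is the gene for which every beta cell library lies to the left.

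All 16 chaperones were called higher in the beta cell fractions, with log2 fold changes from 0.34 (*Pdia4*) to 1.87 (*Sdf2l1*) and a median of 0.95. *Hspa5*, the ER Hsp70 that binds unfolded chains, was at 2266, 1976, 2523 and 2377 CPM in the NNAT-positive-labelled libraries of mice 1 to 4. It was at 2216, 2164, 2523 and 2614 CPM in the NNAT-negative-labelled libraries, and at 1178, 1065 and 1331 CPM in the non-beta libraries of mice 1 to 3. The beta cell libraries of either label overlapped each other and all lay above the non-beta libraries, a difference of 1.91-fold (log2 0.94, SE 0.080, adjusted p = 5.04e-06).

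The largest chaperone difference was that of *Sdf2l1*, a partner of ER DnaJ proteins. It was at 206.1, 212.2, 188.5 and 146.9 CPM in the NNAT-positive-labelled libraries, at 218.1, 210.7, 164 and 153.3 CPM in the NNAT-negative-labelled libraries and at 57.9, 50.1 and 55.3 CPM in the non-beta libraries. The fractions of beta cells overlapped, both lay clear of the non-beta cells, and the fitted difference was 3.66-fold (log2 1.87, SE 0.098, adjusted p = 1.66e-07). *Hyou1*, a large chaperone that also exchanges nucleotide on BiP, was at 1618, 1413, 1581 and 1153 CPM, at 1648, 1405, 1500 and 1149 CPM, and at 411.7, 388.9 and 529.6 CPM in the same order. It was 3.46-fold higher (log2 1.79, SE 0.11), and mouse 4 held the lowest value of each beta cell fraction.

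*Dnajb9* (ERdj4), a co-chaperone that directs BiP to misfolded clients and to IRE1, was at 526.3, 380.1, 682.7 and 502.9 CPM in the NNAT-positive-labelled libraries, at 544.7, 275.5, 711.5 and 514 CPM in the NNAT-negative-labelled libraries and at 161.1, 137.6 and 238 CPM in the non-beta libraries. In each of the 3 populations mouse 3 was highest and mouse 2 lowest, and the groups did not overlap (log2 1.51, SE 0.13). *Pdia6*, a disulphide isomerase, was at 837.7, 858.2, 762.5 and 656.2 CPM, at 883.7, 893.2, 745.3 and 693.1 CPM, and at 329.5, 314.2 and 331.5 CPM (log2 1.35, SE 0.092). *Manf*, an ER-resident and secreted protein that stabilises BiP complexes, was at 461.5, 383.1, 507.5 and 403.3 CPM, at 467.7, 307.6, 508.5 and 404.2 CPM, and at 171.1, 153 and 210.8 CPM (log2 1.29, SE 0.096).

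The other chaperones were the co-chaperones *Dnajc3* and *Dnajb11*, the nucleotide exchange factor *Sil1*, *Creld2*, the lectin chaperones *Calr* and *Canx* that retain glycoproteins for folding, the disulphide isomerases *P4hb*, *Pdia3* and *Pdia4*, and *Hsp90b1* (GRP94), the ER Hsp90. Their log2 fold changes ran from 0.34 to 1.16. The 3 smallest were *Sil1* (0.52, SE 0.10), *Hsp90b1* (0.45, SE 0.092) and *Pdia4* (0.34, SE 0.087, adjusted p = 0.00784), and for *Sil1* and *Pdia4* the beta and non-beta libraries overlapped. *Pdia4* was the least secure of the 16, with an adjusted p from 0.0113 to 0.102 on leaving out each mouse in turn and of 0.216 with library sizes alone. *Hsp90b1* shares 10.3% of its exonic bases with a gene on the opposite strand, and whether the counting used strand is not given in the sources used here.

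Per kilobase of annotated exon, *Hspa5* stood highest of the 35 genes in both beta cell fractions, at 540.6 CPM per kb in the NNAT-positive-labelled fraction and 562.5 CPM per kb in the NNAT-negative-labelled fraction. *P4hb*, *Pdia3*, *Calr* and *Hsp90b1* followed in that order in both. In non-beta cells *Hsp90b1* stood highest, at 307.5 CPM per kb, with *Hspa5* at 281.6 CPM per kb in the fourth place and *P4hb* and *Pdia3* between them at 306.6 and 304.1 CPM per kb. These orders are of group means, and within each fraction the ranges of neighbouring genes were not compared per kb.

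Summed over the 16 chaperones, the non-beta libraries held 7125 to 7998 CPM (mean 7546 ± 437.3, SD, n = 3). The NNAT-positive-labelled libraries held 11840 to 14810 CPM (13850 ± 1386, n = 4), and the NNAT-negative-labelled libraries 12600 to 14800 CPM (14150 ± 1039, n = 4). The sum in beta cells was 1.85- to 1.97-fold that of the same mouse's non-beta cells in the NNAT-positive-labelled fraction, and 1.83- to 2.08-fold in the NNAT-negative-labelled fraction, over mice 1 to 3. As a share of all counts the chaperones took 1.29% to 1.42% of each beta cell library and 0.716% to 0.851% of each non-beta library.

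All 7 ERAD genes were called higher, with a median log2 fold change of 1.16. Without mouse 1 or without mouse 3 this held for 5 of the 7, the calls of *Herpud1* and *Sel1l* being lost. *Derl2*, a channel component through which misfolded proteins leave the ER, was at 153, 125.9, 182.6 and 157.6 CPM in the NNAT-positive-labelled libraries, at 155.5, 134.9, 185.7 and 172.2 CPM in the NNAT-negative-labelled libraries and at 52.8, 54 and 57.9 CPM in the non-beta libraries. Every beta cell library exceeded every non-beta library more than 2-fold (fitted log2 1.49, SE 0.089, adjusted p = 3.78e-07). Its relative *Derl1* was at 168.6 to 212.7 CPM over the beta cell libraries and 74.5 to 98.7 CPM over the non-beta libraries (log2 1.16, SE 0.082).

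*Syvn1* (HRD1), the ubiquitin ligase at the centre of ERAD, was at 90.1, 66.05, 95.3 and 112.2 CPM, at 107.9, 50.7, 98.4 and 93.2 CPM, and at 42.7, 30.7 and 36.95 CPM (log2 1.18, SE 0.13). *Derl3* was at 27.4, 30.7, 14.1 and 17.1 CPM, at 31.2, 21.2, 15 and 16.8 CPM, and at 10.4, 9.62 and 8.44 CPM (log2 1.23, SE 0.18). *Edem1*, a mannose-trimming factor that marks glycoproteins for disposal, was at 151.1 to 178.4 CPM in the beta cell libraries and 75.8 to 119.4 CPM in the non-beta libraries (log2 0.90, SE 0.12). All 3 genes showed no overlap between beta and non-beta libraries, though *Syvn1* and *Derl3* spread over 2.2-fold among the beta cell libraries themselves.

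*Herpud1*, which recruits substrates to the ligase, was at 207.5, 191.3, 203.3 and 264.5 CPM in the NNAT-positive-labelled libraries, at 195, 167.2, 204.4 and 232.1 CPM in the NNAT-negative-labelled libraries, and at 125, 151.5 and 134.1 CPM in the non-beta libraries. It had the smallest difference of the ERAD genes (log2 0.51, SE 0.096, adjusted p = 0.00126), and mouse 4 was highest in each beta cell fraction. *Sel1l*, the ligase's scaffold, was at 209.3 to 293.1 CPM against 172.2 to 218.1 CPM and overlapped (log2 0.55, SE 0.10).

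The sensors and transcription factors went in both directions. Of the 6, 4 were called higher, *Atf3* was called lower and *Ddit3* was not called. *Atf6* had the largest increase, at 228.7, 228.5, 285.6 and 238.7 CPM in the NNAT-positive-labelled libraries, 209.3, 184.4, 295.3 and 244.2 CPM in the NNAT-negative-labelled libraries, and 108.6, 111.3 and 111 CPM in the non-beta libraries (log2 1.09, SE 0.11, adjusted p = 1.64e-05).

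*Xbp1*, the substrate of IRE1, was at 309.6, 263.2, 348.1 and 290 CPM, at 312.4, 232, 325.5 and 281.1 CPM, and at 234.1, 208.8 and 224.5 CPM in the same order. Its groups met at the edge, where the NNAT-negative-labelled library of mouse 2 lay just below the highest non-beta library, and the difference was small (log2 0.41, SE 0.086, adjusted p = 0.0023). It was not called without mouse 1 or mouse 3 (adjusted p = 0.0178 and 0.0439), with library sizes alone (0.061) or without the block (0.0191). *Ern1*, encoding IRE1 itself, was at 277.4, 258.6, 255.8 and 204.2 CPM, at 248.5, 206.6, 276.2 and 179.2 CPM, and at 141.2, 206.7 and 193.3 CPM (log2 0.50, SE 0.13, adjusted p = 0.00824). It overlapped, and was not called when mouse 1 or mouse 3 was left out (adjusted p = 0.0764 and 0.0422).

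*Atf4*, whose protein is governed mainly by translation, was at 195.7, 247.4, 252.4 and 254 CPM in the NNAT-positive-labelled libraries, at 194, 278.3, 251.8 and 268.5 CPM in the NNAT-negative-labelled libraries, and at 154.2, 136.3 and 172.7 CPM in the non-beta libraries. All beta cell libraries lay above the non-beta libraries (log2 0.60, SE 0.11, adjusted p = 9.58e-04), and mouse 1 was lowest in each beta cell fraction. Without mouse 3 the adjusted p was 0.0115.

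*Atf3* went the other way. It was at 1.83, 1.08, 1.31 and 25.2 CPM in the NNAT-positive-labelled libraries of mice 1 to 4 and at 1.02, 0, 1.11 and 14.0 CPM in the NNAT-negative-labelled libraries, against 146.1, 56.4 and 65.3 CPM in the non-beta libraries. The value of 0 came from no count in that library, which allows up to 0.0913 CPM at a limit of 3 counts. Every beta cell library lay below every non-beta library, those of mouse 4 stood far above those of mice 1 to 3, and the fitted log2 fold change was -6.43 (SE 0.34, adjusted p = 1.72e-07). With the mouse as a block, mouse 4, which has no non-beta library, adds no within-mouse difference to this comparison, though it enters the filter, the scaling and the estimate of the spread. Without the block the log2 fold change was -4.02 (adjusted p = 0.00905).

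*Ddit3*, encoding the pro-apoptotic factor CHOP, was at 11.6, 9.86, 15.7 and 30.1 CPM in the NNAT-positive-labelled libraries, at 14.1, 14.95, 12 and 31.5 CPM in the NNAT-negative-labelled libraries, and at 9.60, 8.67 and 9.79 CPM in the non-beta libraries. All beta cell libraries lay above the non-beta libraries, the NNAT-positive-labelled library of mouse 2 by little, yet the difference was not called (log2 0.48, SE 0.16, adjusted p = 0.0323). The 8 beta cell libraries of *Ddit3* thus spread 3.19-fold, the 2 of mouse 4 lying above the rest. As for *Atf3*, mouse 4 adds no within-mouse difference to the fitted value. Over the main fit and the alternatives that kept every mouse, the log2 fold change ran from 0.30 to 0.90. The adjusted p ran from 0.0323 to 0.145 there, by edgeR or DESeq2.

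Immediate early genes, which are induced within minutes by many stimuli, moved with the populations in the direction of *Atf3*. Summed over 21 of them, the non-beta libraries held 4346 to 7485 CPM, the 6 beta cell libraries of mice 1 to 3 held 487 to 985.1 CPM, and those of mouse 4 held 4148 and 3390 CPM. Summed over 13 cytosolic heat shock genes, the values were 2881 to 3285 CPM, 2228 to 2661 CPM, and 4095 and 4024 CPM. Their part in the differences of *Atf3*, *Ddit3* and *Ppp1r15a* was not tested.

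The ATF4 branch targets were mixed as well, with 2 called higher, 1 lower and 2 not called. *Chac1*, which degrades glutathione, was at 8.37, 16.5, 11.8 and 15.5 CPM in the NNAT-positive-labelled libraries, at 11.4, 13.8, 12.7 and 13.2 CPM in the NNAT-negative-labelled libraries, and at 1.71, 3.07 and 4.87 CPM in the non-beta libraries. Though at a low level, it did not overlap and had the largest rise of all 35 genes, 4.04-fold (log2 2.02, SE 0.26, adjusted p = 9.9e-05). *Asns*, asparagine synthetase, was at 125.8, 123.3, 136.8 and 85.9 CPM, at 126.7, 141.9, 145.2 and 88.9 CPM, and at 38.4, 67.8 and 66.2 CPM (log2 1.24, SE 0.13).

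*Ppp1r15a* (GADD34), the inducible subunit that reverses translational arrest, was at 33.2, 22.6, 34.7 and 68.1 CPM in the NNAT-positive-labelled libraries, at 31.6, 19.4, 28.8 and 63.8 CPM in the NNAT-negative-labelled libraries, and at 73.7, 48.1 and 55.0 CPM in the non-beta libraries. In mice 1 to 3 both beta cell libraries lay below the non-beta library of the same mouse, and the libraries of mouse 4 lay within the non-beta range (log2 -1.06, SE 0.094, adjusted p = 6.07e-06). Without the mouse as a block this call was lost (log2 -0.64, adjusted p = 0.161). Its constitutive relative *Ppp1r15b* was at 49.3 to 80.7 CPM against 58.4 to 77.7 CPM (log2 -0.14, SE 0.14), and 11.4% of its exonic bases are shared with a gene on the opposite strand. *Trib3*, a pseudokinase induced by ATF4 and CHOP, had the lowest level per kb of the 35 genes in each population and was at 2.76 to 4.82 CPM against 1.75 to 3.85 CPM (log2 0.54, SE 0.35).

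*Wfs1*, the ER membrane protein whose loss causes Wolfram syndrome with diabetes, was at 220, 190.1, 267.3 and 205.3 CPM in the NNAT-positive-labelled libraries, at 221.9, 159, 252.9 and 194 CPM in the NNAT-negative-labelled libraries, and at 46.05, 49.5 and 75.4 CPM in the non-beta libraries. It was 3.86-fold higher in beta cells with no overlap (log2 1.95, SE 0.11, adjusted p = 2.6e-07). As for *Dnajb9*, mouse 3 was highest in all 3 populations.

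**Figure D2:**
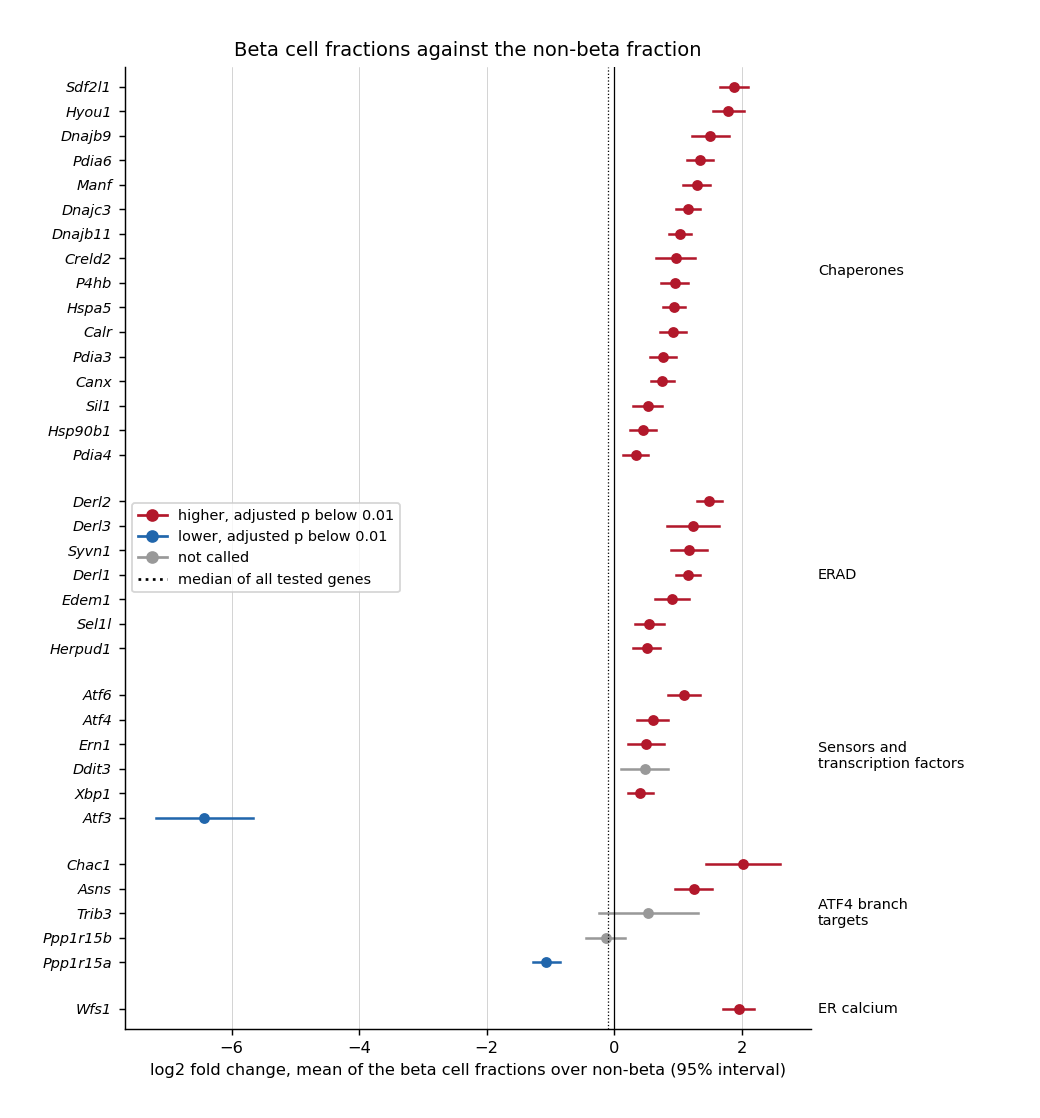
Log2 fold change of each gene between the mean of the beta cell fractions and the non-beta fraction, with the 95% interval of the fit as a bar and the dotted line at the median of all tested genes (-0.098). Red marks the 30 genes called higher, blue the 2 called lower (*Atf3* at -6.43 and *Ppp1r15a* at -1.06) and grey the 3 not called.

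Set beside the promoter sequences, the 9 genes with the ERSE were all called higher and had log2 fold changes from 0.45 to 1.35 with a median of 0.96. Of the 20 with a window but without the element, 16 were called higher, with a median of 0.68 and a range from -6.43 to 2.02. These sets differ in role, since all 9 are chaperones or ERAD genes and the 20 also hold stress factors and ATF4 targets. All 16 chaperones and all 7 ERAD genes were called higher, with the element or without it, so the medians are not read as an effect of the element. The 6 genes without a window had a median of 1.13, and 5 of them were called higher. *Sdf2l1*, *Dnajb9*, *Derl2*, *Chac1* and *Wfs1*, 5 of the genes with the largest increases, were among those whose window lacked it.

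Against the non-beta cells separately, 29 of the 35 genes were higher and 2 lower in the NNAT-positive-labelled fraction (15.8% and 19.1% of all genes tested), and 28 were higher and 2 lower in the NNAT-negative-labelled fraction (15.6% and 21.3%). These comparisons use the same non-beta libraries. *Pdia4* missed the threshold in each (adjusted p = 0.0111 and 0.0202), and *Ern1* passed in the first and not in the second (0.00809 and 0.0296).

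The remaining genes of the pathway, 106 tested of 109 listed by function, were described alongside. Of these, 53 were higher in the beta cell fractions and 13 lower, with a median log2 fold change of 0.40. Of all genes tested, 17.2% were higher and 23.9% lower, which holds beside each list below. Among 28 other folding genes, 15 were higher and 4 lower. *Ero1b*, the ER oxidase enriched in islets, was at 3709 and 3985 CPM in the means of the NNAT-positive-labelled fractions and NNAT-negative and at 292.6 CPM in non-beta cells (log2 3.78, SE 0.18), and it is itself one of the beta cell markers used above. The prolyl isomerase *Fkbp11* (log2 1.79), the cargo receptor *Lman1* (1.72) and the folding sensor *Uggt1* (1.69) also rose. *Fkbp7* (-5.66), the peroxiredoxin *Prdx4* (-1.97), *Fkbp14* (-1.51) and the cyclophilin *Ppib* (-0.70) fell.

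Of 26 other ERAD genes, 16 were higher and 0 lower at this threshold, where at an unadjusted p below 0.05 21 were higher and 2 lower (24.7% and 32.5% of all genes tested). They were led by the mannosidase-like *Edem3* (log2 1.25) and *Edem2* (1.19), then *Selenos* (1.15) and the ubiquitin ligase *Ube4a* (1.02). Of 24 other sensors and factors, 9 were higher and 3 lower. *Atf5* rose most (log2 2.24, SE 0.13), followed by *Bhlha15* (2.03), a secretory cell factor also counted among the acinar markers, *Creb3l1* (1.24) and *Crebrf* (0.68). *Nupr1* (-1.42), *Cebpb* (-1.36) and *Nfe2l2* (-1.11) fell. For *Crebrf* and *Nupr1* the beta and non-beta libraries overlapped.

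Of 28 other ATF4 targets, 13 were higher and 6 lower (17.2% and 23.9% of all genes tested), the lower calls being near that share. The mitochondrial folate enzyme *Mthfd2* (log2 1.58), the lipoprotein receptor *Vldlr* (1.49), the alanyl-tRNA synthetase *Aars* (1.36) and the amino acid transporter *Slc7a5* (1.30) rose. *Cth*, of cysteine synthesis, was near absent from beta cells (0.118 and 0.131 CPM against 2.60 CPM, log2 -5.81, SE 1.35), and the glycine transporter *Slc6a9* (-1.82), *Stc2* (-1.41) and the serine synthesis enzyme *Psat1* (-0.97) were lower too.

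The second question was whether the beta cell fractions differed from each other. None of the 35 genes was called between the NNAT-positive-labelled and NNAT-negative-labelled libraries, in either direction. Of all genes tested, 0.0517% were higher in the NNAT-positive-labelled libraries and 0 lower. At an unadjusted p below 0.05, 1 of the 35 was higher by edgeR (4.82% of all genes tested) and 0 by DESeq2. At an adjusted p below 0.01 DESeq2 also called 0 of the 35, against 0.706% of all genes tested higher and 0.0803% lower. The median log2 difference was -0.00030 over the 35 genes and 0.053 over all tested genes, and apart from *Atf3* it ran from -0.14 (*Ddit3*) to 0.20 (*Trib3*). The CPM ranges of the fractions lay apart for 0 of the 35, against 1.72% of all genes with every NNAT-positive-labelled library above and 0.339% below.

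The precision of this comparison is given by its intervals. The 95% interval of the log2 difference lay within 0.5 of 0 for 32 of the 35, the exceptions being *Atf3*, *Trib3* and *Chac1*, and for the 16 chaperones the bounds ran from -0.39 to 0.34. For *Hspa5* the differences were 0.032, -0.13, 0.00 and -0.14 in mice 1 to 4 (fitted -0.059, interval -0.23 to 0.11). For *Xbp1* they were -0.013, 0.18, 0.097 and 0.045 (fitted 0.077, interval -0.11 to 0.26), and for *Wfs1* -0.013, 0.26, 0.080 and 0.082 (fitted 0.099, interval -0.12 to 0.32). Mouse 2 gave the widest single-mouse differences for several genes, among them *Dnajb9* (0.46), *Derl3* (0.53), *Syvn1* (0.38) and *Creld2* (-0.34). Its NNAT-positive-labelled library was the one with 3097 CPM of acinar markers. Its NNAT-negative-labelled library had the highest sum of beta cell markers (432700 CPM). The part of either in these differences was not tested.

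*Atf3* was higher in the NNAT-positive-labelled library in 4 of 4 mice, by 0.80, 4.42, 0.23 and 0.85 on the log2 scale. The value of mouse 2 compares 1.08 CPM with 0. The fitted difference was 0.96 (SE 0.39, unadjusted p = 0.035, adjusted p = 0.844) and did not pass the correction. *Ppp1r15a* was also higher in 4 of 4 mice (fitted 0.16, SE 0.097), and *Derl2*, *Dnajb11*, *Edem1* and *Asns* were lower in 4 of 4, with fitted differences from -0.090 to -0.068. Of all genes tested, 12% were higher and 4.51% lower in 4 of 4 mice. Beside *Atf3*, summed immediate early genes were higher in the NNAT-positive-labelled library of each mouse (985.1, 605.2, 697.9 and 4148 CPM against 790.7, 487, 601.3 and 3390 CPM), and alpha, delta and PP cell markers were higher by range, as given above. Their part in the difference of *Atf3* was not tested.

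**Figure D3:**
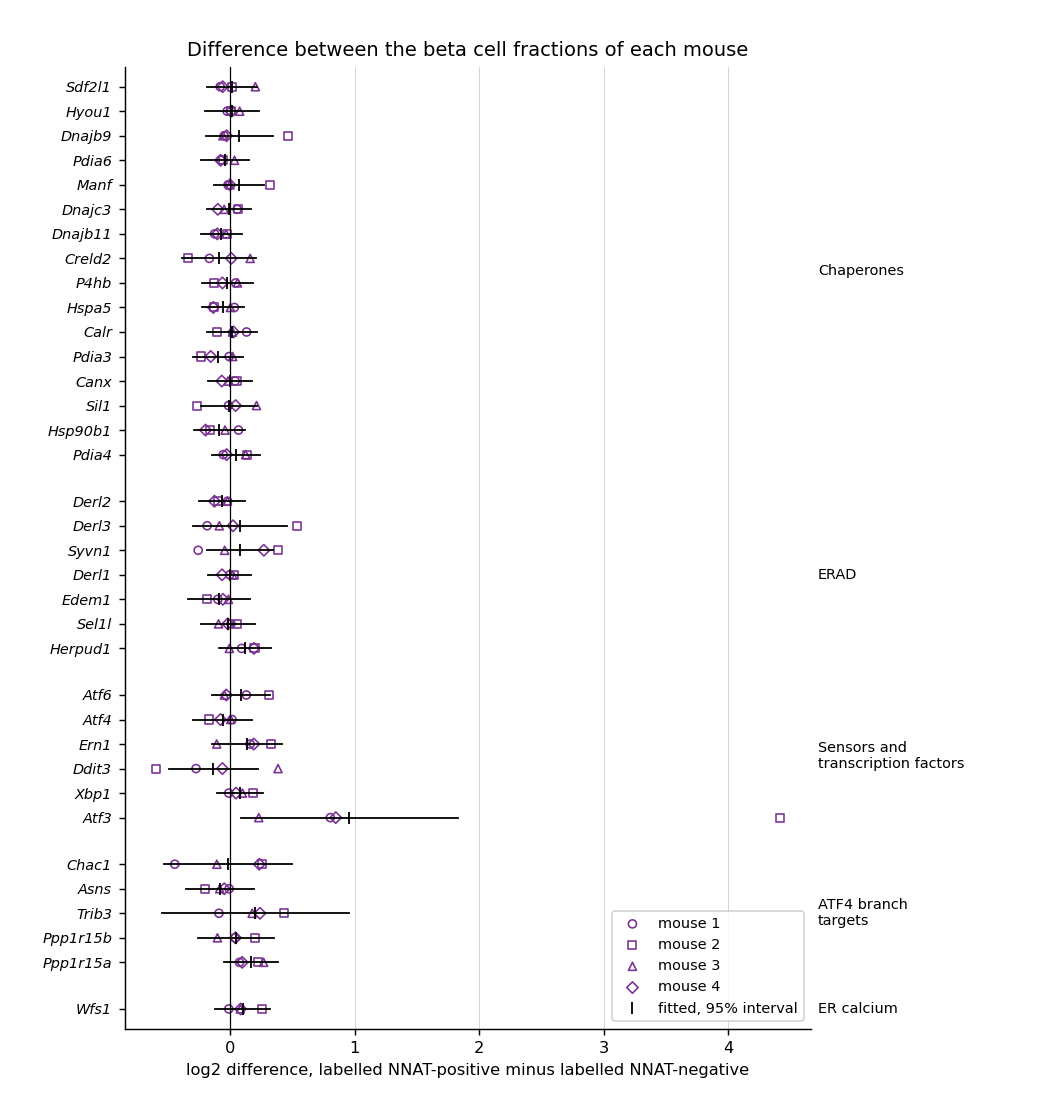
Difference between the NNAT-positive-labelled library and the NNAT-negative-labelled library of the same mouse for each gene, on the log2 scale, with 1 symbol per mouse, a tick for the fitted difference and a bar for its 95% interval. Chaperone intervals lie between -0.39 and 0.34, and *Atf3* of mouse 2 (4.42) compares 1.08 CPM with 0.

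Among the other 106 pathway genes, 0 were called between the beta cell fractions by edgeR and 0 by DESeq2, with the shares of all genes tested as given above. At an unadjusted p below 0.05 edgeR gave 2, both higher in the NNAT-positive-labelled libraries, *Prdx4* (log2 0.38) and *Pycr1* (0.23). *Ero1b*, chosen here after its values were seen, was the 1 gene of the 106 whose ranges lay apart (0.339% of all genes tested in this direction), at 3553 to 3839 CPM in the NNAT-positive-labelled and 3905 to 4079 CPM in the NNAT-negative-labelled libraries (log2 -0.10, SE 0.15, adjusted p = 0.97).

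Within the beta cells, the fractions of a mouse tended to stand high or low together. The lowest library of a gene came from the same mouse in both fractions for 32 of the 35 genes, and the highest for 22. The matching shares of all genes tested were not counted, here or for the spreads below. Over all genes tested, deviations of the beta cell fractions of a mouse correlated at 0.18 to 0.66, so these counts are not read as particular to the 35. Among the 8 beta cell libraries, 5 genes spread over 2-fold, namely *Dnajb9*, *Syvn1*, *Derl3*, *Ddit3* and *Ppp1r15a*, and *Atf3* had a library at 0. The smallest spread was that of *Edem1* (1.18-fold) and the median spread was 1.56-fold. *Atf6*, *Xbp1*, *Wfs1*, *Manf*, *Dnajb9*, *Dnajb11* and *Pdia4* had mouse 3 highest and mouse 2 lowest in both beta cell fractions, as did *Derl2* of the ERAD genes.

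Mouse 4 stood apart for some genes of every role but ER calcium. Its 2 beta cell libraries lay above all other beta cell libraries for *Atf3*, *Ddit3*, *Ppp1r15a* and *Herpud1*, the means standing 18.5-, 2.36-, 2.32- and 1.275-fold above those of mice 1 to 3. They lay below all others for 9 of the 16 chaperones, among them *P4hb* (0.650 of the other mice), *Calr* (0.696) and *Sil1* (0.699), while *Hspa5* was at 1.095 of the other mice. *Ern1* (0.755), *Sel1l* (0.757), *Derl1* (0.887), *Asns* (0.656) and *Trib3* (0.797) lay below all others too, and *Atf6*, *Xbp1* and *Atf4* did not lie apart with this scaling. Most of the low positions rest on the scaling. Without the composition factors, only *Sil1*, *Calr* and *P4hb* of the chaperones lay below all other beta cell libraries, and *Hspa5* and *Dnajb11* lay above them. Of the other genes, only *Asns* then lay below, so *Ern1*, *Sel1l*, *Derl1* and *Trib3* no longer did. *Atf4*, *Syvn1* and *Derl2* then lay above all other beta cell libraries. The higher values of *Atf3*, *Ddit3*, *Ppp1r15a* and *Herpud1* in mouse 4 were there under both scalings. These values describe 1 animal, and no test between mice was made. The share of all genes tested that lay apart in mouse 4 was not counted.

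**Figure D4:**
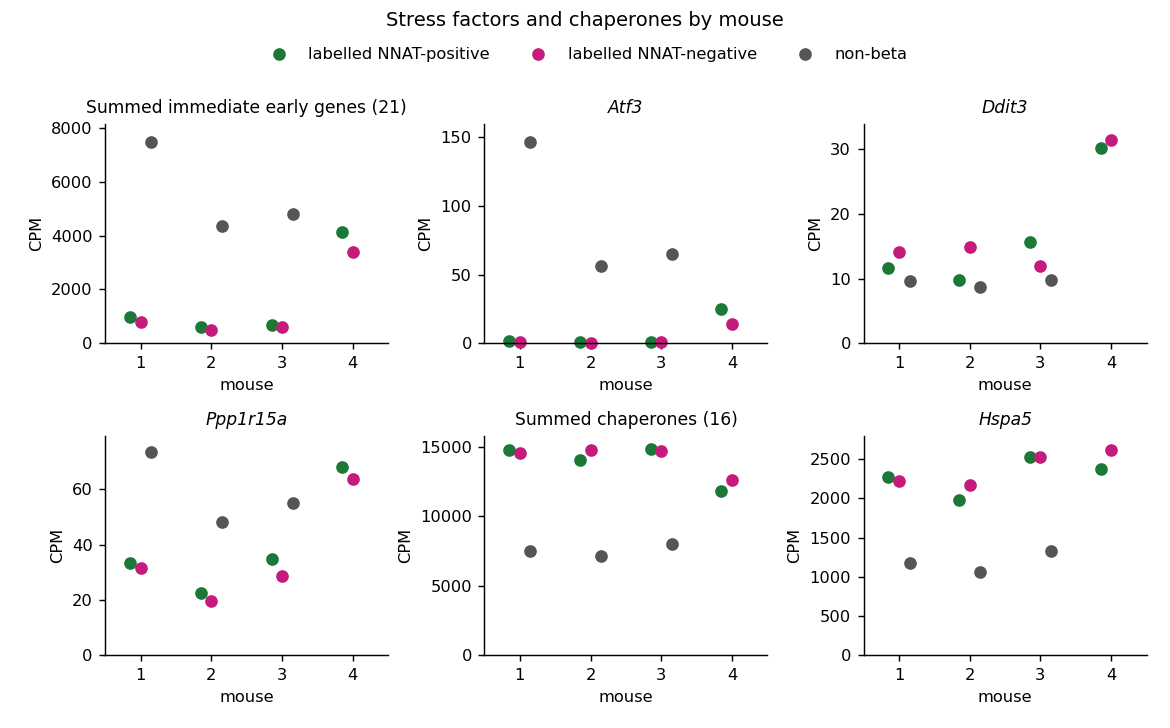
CPM on the vertical axis for each mouse on the horizontal axis, with colour for the sorted population. Summed immediate early genes, *Atf3*, *Ddit3* and *Ppp1r15a* are higher in the beta cells of mouse 4 than in those of mice 1 to 3, whereas the 16 summed chaperones are lower there with this scaling (11840 and 12600 CPM) and *Hspa5* lies close to the other mice (2377 and 2614 CPM). Mouse 4 has no non-beta library here.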

How the data were processed

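The 11 libraries were grouped by their sample labels. The 35 genes, their roles and the other lists were chosen with earlier results of these data known. The authors deposited raw gene counts, obtained per the labels and the methods with STAR 2.7.1a on mm10 and GENCODE annotation, and their processing notes also name DESeq2 1.32.0. The counting's strand setting is not given in the sources used here, so overlapping antisense genes cannot be separated.

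From these counts, genes were filtered with filterByExpr by group, scaled by TMM and tested with edgeR 4.0.16 (quasi-likelihood F test, R 4.3.3) in a single fit of all libraries with the mouse as a block and Benjamini-Hochberg adjustment over 17424 genes. Calls were made at an adjusted p below 0.01. CPM values are TMM-scaled, per-mouse log2 differences use a prior count of 2, and SE is the log2 fold change over the root of F. The replicate number marks the mouse in the labels. Deviations of the beta cell fractions correlated at 0.18 to 0.66 within a mouse and -0.32 to 0.093 between mice, and those of beta and non-beta libraries of a mouse at 0.032 to 0.13. With the block, p-values measure the spread left once each mouse's own level is taken out, estimated in the single fit of all 11 libraries. The beta cell fractions are compared with each other over 4 mice, and their mean with non-beta cells over 3.

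Per-library values were printed for up to 5 called genes a role with the largest fold changes and for *Hspa5*, *Xbp1*, *Atf4*, *Ddit3*, *Herpud1* and *Wfs1*. From the other pathway lists at most 4 called genes a list and direction were named. Exonic lengths and spans came from GENCODE vM21 (GRCm38), matched by identifier for all 35 genes, of which 12 share exonic bases with another gene. Alternatives were DESeq2 1.42.0, other scalings, no filter, no block, other thresholds, only the beta cell libraries, exchanged fraction names and leaving out each mouse. Scripts were tested on simulated data.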

Additional observations from a re-analysis of the deposited data

Results flagged for a closer look

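In groups of 4 libraries, a library was singled out when its gap to the nearest other library as a share of the group's range exceeded Dixon's 95% critical value. Of 72 groups examined, 11 were picked out this way. Chance picks about 1 group in 20, but these groups share libraries and scaling, so 11 of 72 cannot be read against that rate. In 9 of the 11 the library was that of mouse 4.

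Among the NNAT-positive-labelled libraries, mouse 4 stood low for *Sil1* (66.8 CPM), *Calr* (968 CPM), *Canx* (843 CPM) and *P4hb* (1080 CPM) and high for *Atf3* (25.2 CPM), while mouse 1 stood low for *Atf4* (196 CPM). Among the NNAT-negative-labelled libraries, mouse 4 stood low for *Canx* (884 CPM) and for the 16 summed chaperones (12600 CPM) and high for *Atf3* (14.0 CPM) and *Ddit3* (31.5 CPM), and mouse 2 stood high for *Hsp90b1* (1920 CPM). The TMM factors of the 2 beta cell libraries of mouse 4 were 1.12 and 1.13, against 0.870 to 0.964 in the other beta cell libraries. As a share of all counts, without these factors, the summed chaperones took 1.42% of the NNAT-negative-labelled library of mouse 4, the highest of the 4 libraries of that label, and 1.33% of its NNAT-positive-labelled library, the lowest of that label.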

How the results depend on the processing

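Of the 30 genes higher in beta cells, 22 were called higher in all 10 refits, while *Atf4*, *Ern1*, *Herpud1*, *Hsp90b1*, *Pdia4*, *Sel1l*, *Sil1* and *Xbp1* lost the call in at least 1. Leaving out each mouse gave 23 to 29. Requiring over 2-fold gave 15 of the 35, 14 in the NNAT-positive-labelled fraction and 16 in the NNAT-negative-labelled fraction, and 19 other pathway genes, fewer by construction. Without the mouse as a replicate block, 24 genes were higher and 1 lower (13.5% and 22.7% of all genes), 40 and 10 of the other pathway genes, and 0 were lower in either fraction tested separately. In the NNAT-positive-labelled fraction 1 was lower over 2-fold. The other pathway genes called lower rose from 13 to 20 at an adjusted p below 0.05 and to 21 by DESeq2, as lower calls over all genes rose from 23.9% to 30.1% and 29.8%. The cause was not tested.

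Scaling moved the median of all genes between beta and non-beta cells from -0.098 to -0.18 (size factors of DESeq2), -0.16 (without 7 hormone genes) and -0.27 (library sizes alone), where the median of the 35 stayed 1.03 above it in each.

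Between the beta cell fractions 0 of the 35 and 0 of the other pathway genes were called under any alternative. Log2 differences near 0 changed sign, for *Hyou1*, *Sdf2l1* and *Calr* to -0.023 each with DESeq2 size factors, by DESeq2 (-0.023, -0.023 and -0.023) and in a fit of the beta cells alone (-0.024, -0.023 and -0.023), to -0.026, -0.025 and -0.025 without the hormone genes and to -0.020, -0.019 and -0.020 without the filter. With library sizes alone *Canx* (0.029), *Chac1* (0.016), *Derl1* (0.026), *Dnajc3* (0.020), *P4hb* (0.0052), *Sel1l* (0.011) and *Sil1* (0.019) turned positive, as did *Canx* (0.0036) and *Chac1* (0.027) without the block. Leaving out each mouse spanned 0 for *Calr* (-0.028 to 0.056), *Canx* (-0.019 to 0.0083), *Chac1* (-0.14 to 0.14), *Ddit3* (-0.31 to 0.015), *Derl3* (-0.089 to 0.17), *Dnajb9* (-0.048 to 0.12), *Dnajc3* (-0.034 to 0.0065), *Hyou1* (-0.022 to 0.030), *Manf* (-0.010 to 0.10), *P4hb* (-0.051 to 0.010), *Ppp1r15b* (-0.016 to 0.099), *Sdf2l1* (-0.042 to 0.048), *Sel1l* (-0.052 to 0.014), *Sil1* (-0.076 to 0.075) and *Syvn1* (-0.021 to 0.19), and for *Ppp1r15b* against non-beta cells (-0.29 to 0.14). *Atf3* and *Trib3* were at a few CPM in most beta cell libraries. They lay above the limit of 3 counts in all but the NNAT-negative-labelled library of mouse 2, where *Atf3* was at 0. The part of depth in their wide intervals was not tested.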
